A study of Mus musculus with 6 samples.

Results

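The genes described here are the 90 protein-coding genes, of 19423 in the deposited table, that the deposited KEGG annotation placed in the homologous recombination, non-homologous end-joining or Fanconi anemia pathway, together with Atm, Rad50 and Chek2. Homologous recombination held 41 of them, end joining 13 and the Fanconi anemia pathway 51, and 16 genes sat in more than 1 pathway. Only Chek2 was there by name alone, because the annotation already listed Atm and Rad50. Their RNA was measured in whole ovaries of balb/c-nude mice on day 80, in 3 Tumor libraries and 3 Control libraries. Mice of the Tumor group carried a subcutaneous graft of a line that the labels spell MBA-MD-231, while Control mice had none. Across the 3 Tumor samples the treatment label ends in a different number each time, whereas the label for the cell line does not change. All animals share the athymic, T-cell-deficient nude background, so neither group models an ovary with a normal immune system. BALB/c mice are known to carry a form of Prkdc with reduced activity, and whether these animals carry it was not tested. How many animals or litters stand behind the samples is not given in the sources used here, so p-values measure only the spread between these samples, which may be technical.

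Homologous recombination copies an intact sister or homologous chromosome across a double-strand break, after the ends have been trimmed and coated with recombination proteins. Non-homologous end joining ligates the ends directly, held by the Ku proteins and DNA-PKcs, and Fanconi anemia proteins detect DNA strands that are linked to each other, mark them with ubiquitin and have the link cut out and bypassed. In the ovary, oocytes use recombination in fetal meiosis and depend on break repair while they rest in follicles, and dividing granulosa cells use the same enzymes during replication.

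Ercc1, Cenpx and Babam2 were lower and Rev1, Atm and Rad50 were higher in Tumor than in Control ovaries. Of the 90 genes, 88 passed the filter on low counts and entered edgeR's quasi-likelihood test, in which 3 were higher, 3 were lower and 82 did not pass at an adjusted p under 0.05. The 3 higher genes are 3.41% of the 88, beside 3.8% of all 15787 tested genes, and the 3 lower genes are again 3.41%, beside 3.91%. Both shares of the repair genes are thus near the background. The changes were small in size: the median absolute log2 fold change of the 88 genes was 0.24, beside 0.29 over all tested genes. With its sign, the median was 0.10, beside -0.02 over all tested genes. Of the 88, 2 genes, Sycp3 and Ercc1, differed by at least 1 on the log2 scale, beside 7.29% of all tested genes. An unadjusted p under 0.05 was reached by 22 of the 88 (25%), beside 31% of all tested genes. All Tumor libraries lay above all Control libraries in 20 genes (22.7%, against 19.8% of all tested genes) and below them in 15 (17%, against 18.4%). In the authors' deposited table, 8 of the 90 genes had a positive log2 fold change with q under 0.05 (8.89%, against 7.36% of all genes with a q) and 4 a negative one (4.44%, against 7.3%). Those 12 contain the 6 genes above. DESeq2, run here as an alternative, called 8 of the 90 genes higher and 5 lower. Over all genes it called 3029 of 19358, 50.4% of them higher.

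The genes that were not tested are Dntt, the template-independent polymerase of lymphocytes, and Gm5136, a predicted gene, each with no more than 1 read in any library. Dntt had 1 read in each Tumor library and 0 in each Control library, too few to compare. When no read is counted, up to 3 may have been missed, or between 0.156 and 0.164 CPM here, a limit that covers counting error only.

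Estimated counts summed to between 18278614 and 18482073 in Tumor libraries and between 18804610 and 19238900 in Control libraries. Markers of ovarian cells were present in all 6 libraries, and several tissue markers moved with the groups or with single libraries. The mean log2 CPM of 19 oocyte markers was 4.76, 4.55 and 4.62 in Tumor libraries and 3.70, 3.79 and 4.14 in Control libraries, and 9 of the 19 were higher. One of 12 granulosa cell markers, Esr2, was higher, and 2 of 8 luteal markers, Akr1c18 and Ptgfr, were lower. In the granulosa and luteal lists 6 and 3 markers had an unadjusted p under 0.05, and DESeq2 called 4 and 3. Granulosa markers had a median log2 fold change of 0.48, with values from -0.83 for Cyp19a1 to 1.48 for Inhba. The 8 luteal markers summed to 2740, 8668 and 9326 CPM in Tumor replicates 1, 2 and 3, against 14912 to 16273 CPM in Control libraries. Summed levels of 8 adipocyte markers were 7330, 637 and 2985 CPM in Tumor replicates 1, 2 and 3, against 444 to 625 CPM in Control libraries. Those of 8 oviduct markers were 2288, 366 and 277 CPM in Tumor replicates, against 778 to 2464 CPM in Control libraries. By edgeR neither list had a member that passed, although 7 of the 8 adipocyte markers had an unadjusted p under 0.05 and the same number was called by DESeq2; for the oviduct list both counts were 0. T and B lymphocyte markers summed to between 8.45 and 10.4 CPM in Tumor and between 8.32 and 11.0 CPM in Control libraries, and 3 of the 8, Cd3g, Cd3e and Cd3d, were too low to test. In whole ovaries, fewer cells of a type and less RNA per cell cannot be told apart, here and in every result below.

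**Figure D1:**
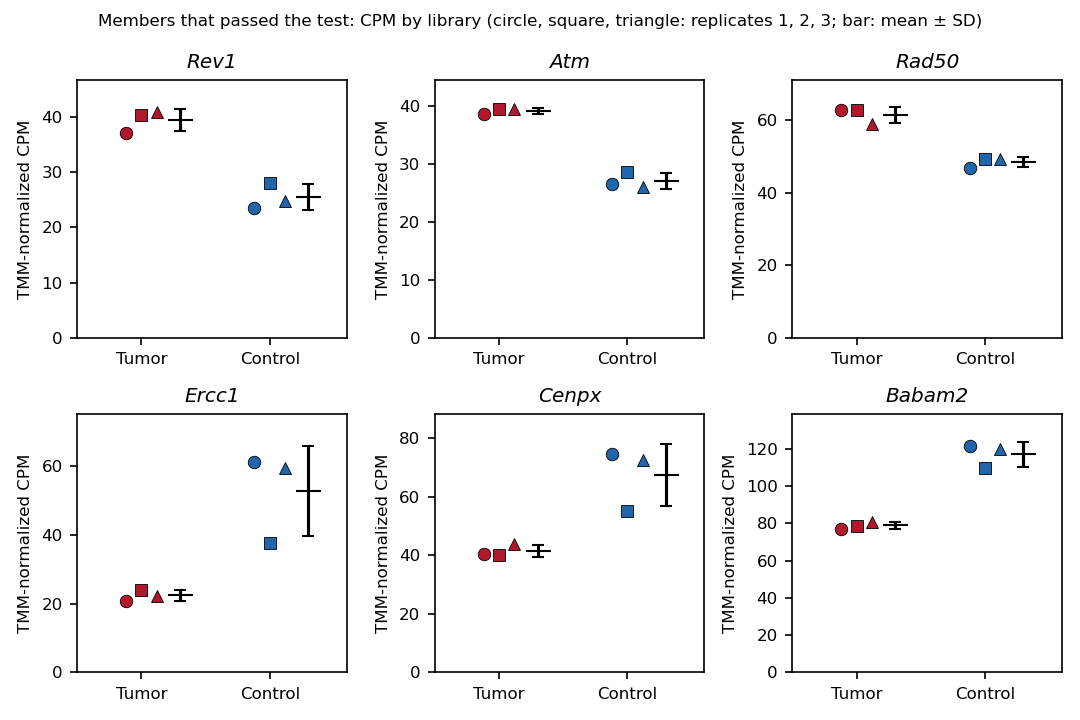
TMM-normalized CPM of the 6 genes that passed the test, with 1 symbol per library and a bar for mean ± SD of 3 libraries, Tumor left of Control. The groups do not overlap in any of the 6, and Control replicate 2 (square) lies nearest the Tumor libraries in every gene but Rad50.

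Sequences upstream of these genes are shown because many members peak with DNA replication, when E2F factors act at promoters. RefSeq promoters of GRCm38.p6, from 250 bases before to 50 bases after the gene's start, were matched by gene number for 73 of the 90 genes. They were searched on both strands for the E2F-type letters TTTCCCGC, TTTCGCGC, TTTGCCGC and TTTGGCGC, and no other motif was searched. A match was found in 12 of the 73 (16.4%), beside 4.3% of 12502 tested genes and 2.6% of all 27025 genes with a promoter in the table. Among the 12 are Bard1, Brca2, Cenps, Chek2, Fancg, Pold1, Pold3, Rmi1, Sycp3, Topbp1 and Xrcc6. Of the 12, 7 had their lowest level in Control replicate 2, as did 18 of the 59 tested genes whose promoter held no match. A match describes letters in this window and is not a site of binding. Promoters are printed for 4 of the 12, picked after their values were seen because their levels differ in kind: Bard1 and Brca2 were lowest in Control replicate 2, Sycp3 had the largest positive fold change of all members, and Chek2 had a negative one. Each reads 5′ to 3′ on the strand of its gene, and capitals mark the match. They lie at chr1:71102923-71103222 on the minus strand for Bard1, and on the plus strand at chr5:150522371-150522670 for Brca2, chr5:110839733-110840032 for Chek2 and chr10:88459337-88459636 for Sycp3.
Bard1: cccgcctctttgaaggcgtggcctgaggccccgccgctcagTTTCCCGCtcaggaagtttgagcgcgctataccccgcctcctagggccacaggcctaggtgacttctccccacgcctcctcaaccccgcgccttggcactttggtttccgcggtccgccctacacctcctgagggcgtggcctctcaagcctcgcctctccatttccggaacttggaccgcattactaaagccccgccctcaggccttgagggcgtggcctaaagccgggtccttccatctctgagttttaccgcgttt
Brca2: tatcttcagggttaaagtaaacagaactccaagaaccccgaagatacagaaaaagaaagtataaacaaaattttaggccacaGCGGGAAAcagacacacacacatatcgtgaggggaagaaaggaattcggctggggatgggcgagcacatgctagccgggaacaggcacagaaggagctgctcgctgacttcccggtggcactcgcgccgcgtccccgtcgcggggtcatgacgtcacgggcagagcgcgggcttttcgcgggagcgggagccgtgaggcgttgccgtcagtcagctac
Chek2: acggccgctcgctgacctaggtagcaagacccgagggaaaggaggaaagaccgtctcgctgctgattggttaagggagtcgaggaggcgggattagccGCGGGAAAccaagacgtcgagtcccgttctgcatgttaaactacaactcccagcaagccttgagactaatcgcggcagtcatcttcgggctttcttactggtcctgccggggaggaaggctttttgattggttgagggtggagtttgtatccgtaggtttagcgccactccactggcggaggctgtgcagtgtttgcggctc
Sycp3: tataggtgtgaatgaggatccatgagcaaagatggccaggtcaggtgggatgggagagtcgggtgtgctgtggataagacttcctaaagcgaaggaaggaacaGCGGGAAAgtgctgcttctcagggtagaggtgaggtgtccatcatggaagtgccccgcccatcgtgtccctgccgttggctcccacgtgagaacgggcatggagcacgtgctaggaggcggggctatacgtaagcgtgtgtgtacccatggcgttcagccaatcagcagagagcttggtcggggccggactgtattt
Counted from the start that this RefSeq table uses, the match begins at position -209 in Bard1, -168 in Brca2, -152 in Chek2 and -147 in Sycp3. The deposited gene bounds reach further upstream in Bard1 and Chek2, so in those positions both matches lie within the gene. Bard1 holds it as TTTCCCGC on the gene's own strand, and the other 3 as GCGGGAAA, its reverse complement.

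Among 10 genes that sense and signal breaks, 2 were higher by edgeR, beside 3.8% of all tested genes, none was lower and 8 did not pass. Their median log2 fold change was 0.25, 5 had an unadjusted p under 0.05, and DESeq2 called 3 higher. Atm, the kinase that starts the signal from a double-strand break (chr9:53437122-53536817), had 38.7, 39.6 and 39.5 CPM in Tumor replicates 1, 2 and 3, against 26.6, 28.6 and 26.1 CPM in Control replicates. The Tumor libraries lay within 1 CPM of each other and above every Control library. This is a log2 fold change of 0.54 ± 0.09 (SE, 3 libraries per group) with an adjusted p of 0.0355 by edgeR. The call ended when libraries were corrected for transcript length (0.19, adjusted p = 0.195) or for GC content (0.39, adjusted p = 0.0506). Rad50, the long coiled-coil subunit of the MRE11 complex that tethers broken ends (chr11:53649519-53707319), had 62.7, 62.9 and 58.9 CPM in Tumor replicates, against 46.9, 49.3 and 49.4 CPM in Control replicates. Its groups did not overlap, and the log2 fold change was 0.34 ± 0.08 (SE, adjusted p = 0.0484). This call ended too, after correction for length (0.17, adjusted p = 0.183) or GC content (0.24, adjusted p = 0.0938). The other subunits of that complex did not pass: Mre11a differed by 0.25 on the log2 scale (adjusted p = 0.114) and Nbn by 0.19 (adjusted p = 0.346), both named after their values were seen.

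Atr, the kinase that answers single-stranded DNA and was singled out after its values were seen, had 47.1, 48.0 and 46.4 CPM in Tumor replicates, against 28.5, 38.0 and 34.0 CPM in Control replicates. The groups did not overlap, but the Control libraries spread widely and edgeR's adjusted p of 0.0573 missed the threshold at a log2 fold change of 0.49 ± 0.12 (SE). The authors' deposited table listed Atr with q = 0.0175. Chek2, the checkpoint kinase that ATM phosphorylates (chr5:110839805-110874140), had 21.5, 15.9 and 13.9 CPM in Tumor replicates, against 23.2, 22.0 and 21.4 CPM in Control replicates. Tumor replicate 1 lay inside the Control range and the other Tumor libraries lay below it. The log2 fold change was -0.38 ± 0.18 (SE, adjusted p = 0.209 by edgeR). Without Tumor replicate 1, the Tumor library inside the Control range, it was -0.58 with an adjusted p of 0.0403. That fit called 2605 of all genes, beside 1217 with all 6 libraries. The other fits that each lacked 1 library gave Chek2 an adjusted p from 0.351 to 0.497.

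Of 8 genes of the BRCA1 complexes, 1 was lower by edgeR, beside 3.91% of all tested genes, none was higher and 7 did not pass. Their median log2 fold change was 0.04, 2 had an unadjusted p under 0.05, and DESeq2 called 1, Babam2, lower. Babam2, a scaffold of the BRCA1-A and BRISC deubiquitinase complexes, had 77.2, 78.8 and 80.7 CPM in Tumor replicates, against 122, 109.5 and 119.9 CPM in Control replicates. No Tumor library reached the lowest Control library, and the spread within each group was small beside the gap between them. Its log2 fold change was -0.57 ± 0.08 (SE) with an adjusted p of 0.0318, the smallest adjusted p of any member, and -0.35 with an adjusted p of 0.0546 after the length correction. Brca1, the ubiquitin ligase that steers breaks towards recombination (chr11:101488761-101551955), had 14.2, 17.7 and 22.0 CPM in Tumor replicates, against 15.1, 8.29 and 17.3 CPM in Control replicates. The groups overlapped, and Control replicate 2 was the lowest of the 6 libraries. Bard1, the ligase partner of BRCA1, had 8.52, 11.2 and 10.6 CPM in Tumor replicates, against 8.16, 5.19 and 9.90 CPM in Control replicates, the lowest again in Control replicate 2. Brca1 differed by 0.41 ± 0.30 (log2 fold change ± SE, adjusted p = 0.407) and Bard1 by 0.38 ± 0.28 (adjusted p = 0.389).

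None of 13 genes grouped with BRCA2 and PALB2 as strand-exchange factors passed by edgeR, and their median log2 fold change was 0.17. Of the 13, 10 lay above 0, beside 62.5% of the 88 tested members and 48.5% of all tested genes. An unadjusted p under 0.05 was reached by 4 of these 13 genes, and DESeq2 called 2, Sycp3 and Xrcc2, higher. Sycp3 is listed in this pathway by KEGG and builds the axis of meiotic chromosomes (chr10:88459587-88473236). It had 7.85, 2.88 and 5.40 CPM in Tumor replicates, against 1.73, 1.5 and 1.78 CPM in Control replicates. All Tumor libraries lay above all Control libraries, and the Tumor libraries differed among themselves far more than the Control libraries did. The log2 fold change was 1.68 ± 0.40 (SE) with an adjusted p of 0.0533, and DESeq2 gave an adjusted p of 0.00522. In the deposited positions Sycp3 shares 5982 bases with Chpt1, a phospholipid synthesis gene on the opposite strand. Chpt1 itself had 481, 85.1 and 244 CPM in Tumor replicates, against 88.0, 109.9 and 83.5 CPM in Control replicates, so both genes had their highest level in Tumor replicate 1 and the next in Tumor replicate 3. The adipocyte markers were ordered in the same way over the Tumor libraries. Whether the libraries kept strand is not given in the sources used here, so reads of Sycp3 and Chpt1 cannot be told apart in that overlap. With the mean of the oocyte markers as a covariate the log2 fold change of Sycp3 was 0.60 ± 1.2 (SE), and with that of the adipocyte markers 0.66 ± 0.38. Neither fit called any of the 15787 tested genes, so the lack of a call for Sycp3 there decides nothing.

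Xrcc2, which promotes strand exchange in recombination, had 16.9, 25.0 and 25.6 CPM in Tumor replicates, against 11.9, 15.7 and 13.4 CPM in Control replicates. Its groups did not overlap, with Tumor replicate 1 nearest to the Control libraries. The log2 fold change was 0.72 ± 0.20 (SE, adjusted p = 0.0749 by edgeR and 0.0233 by DESeq2). Without Tumor replicate 1 edgeR gave an adjusted p of 0.0313, and the other fits that lacked 1 library gave 0.0549 to 0.226. Brca2, which prepares trimmed ends for strand exchange (chr5:150522585-150570329), had 25.2, 29.8 and 27.1 CPM in Tumor replicates, against 21.1, 14.7 and 22.0 CPM in Control replicates. All Tumor libraries were above all Control libraries, and the log2 fold change was 0.51 ± 0.18 (SE, adjusted p = 0.115). By edgeR it was 0.16 ± 0.21 (SE, adjusted p = 0.683) after the length correction. After the GC correction it was 0.35 (adjusted p = 0.286). Palb2, the bridge between BRCA1 and BRCA2, had 6.03, 8.31 and 7.52 CPM in Tumor replicates, against 5.89, 5.19 and 6.41 CPM in Control replicates. Its groups overlapped, and Control replicate 2 was the lowest library. Sem1, the small acidic partner of BRCA2 that is also a proteasome subunit, had the highest level per length of all members, at a mean of 129.8 FPKM over the 6 libraries. It had 52.2, 47.9 and 54.9 CPM in Tumor replicates, against 69.8, 59.6 and 60.7 CPM in Control replicates, without overlap (log2 fold change -0.29 ± 0.10 SE, adjusted p = 0.109).

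No gene of single-strand binding and DNA polymerase delta passed by edgeR among 8, and the median log2 fold change was -0.04. An unadjusted p under 0.05 was reached by 3, and DESeq2 called Pold3 higher and Pold4 lower. Pold4, the smallest subunit of polymerase delta, had 20.2, 20.1 and 15.2 CPM in Tumor replicates, against 41.6, 22.1 and 36.6 CPM in Control replicates. The groups did not overlap, yet Control replicate 2 lay close to the Tumor libraries. The log2 fold change was -0.85 ± 0.26 (SE, adjusted p = 0.0834 by edgeR), and -1.03 with an adjusted p of 0.0286 without Control replicate 2. In the other fits that lacked 1 library its adjusted p was 0.0818 to 0.268. Pold3, another accessory subunit, moved the other way by value, with 62.1, 61.7 and 60.0 CPM in Tumor replicates, against 53.2, 50.5 and 49.7 CPM in Control replicates. Its libraries agreed closely within each group, and the log2 fold change of 0.26 ± 0.07 (SE) had an adjusted p of 0.0778. Pold3 and Pold4 both had q under 0.05 in the authors' deposited table, at 0.27 and -0.84 on its log2 scale.

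**Figure D2:**
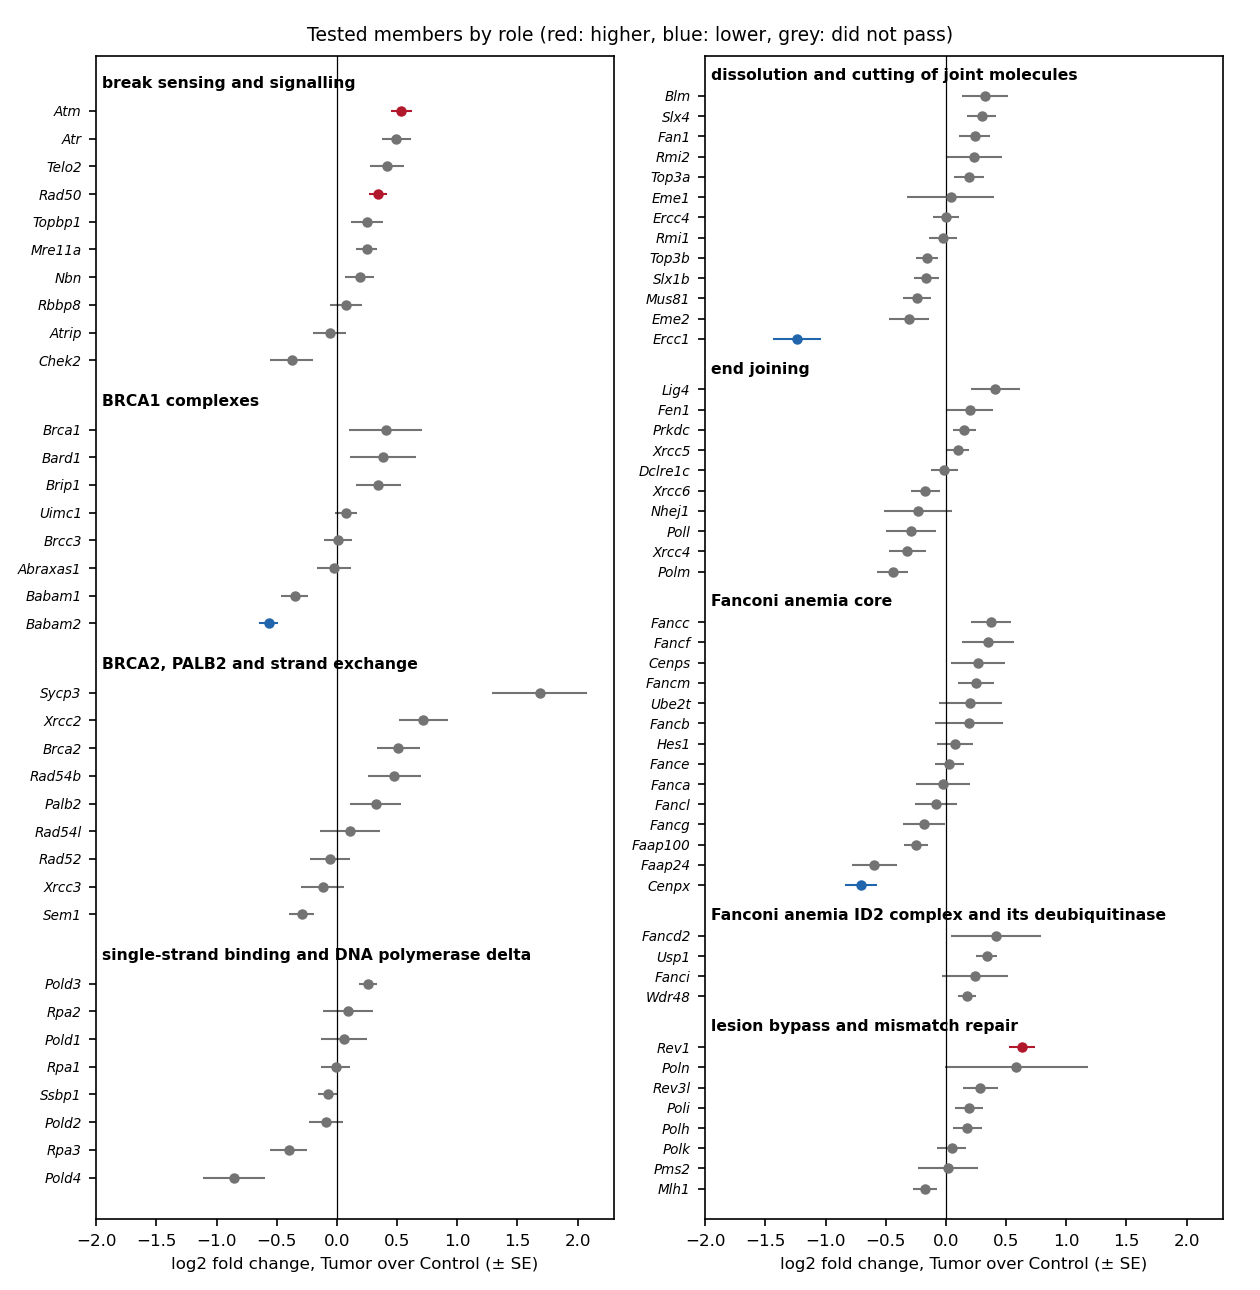
Log2 fold change of Tumor over Control with its SE for tested genes, grouped by role and ordered by value, with the 3 higher genes in red, the 3 lower in blue and those that did not pass in grey. Most genes lie within 0.5 of 0, and Sycp3 and Ercc1 stand furthest out.

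Of 13 genes that dissolve or cut joined DNA molecules, 1 was lower by edgeR, beside 3.91% of all tested genes, none was higher and 12 did not pass. Their median log2 fold change was 0.00, 2 had an unadjusted p under 0.05, and DESeq2 called the same 1 gene lower. The lower one was Ercc1 (chr7:19344067-19356524), the subunit that binds the XPF nuclease to DNA for cutting at crosslinks and in nucleotide excision repair. It had 20.8, 24.0 and 22.3 CPM in Tumor replicates, against 61.1, 37.6 and 59.4 CPM in Control replicates. The Tumor libraries lay close together, and Control replicate 2 lay between them and the other Control libraries. The log2 fold change was -1.23 ± 0.20 (SE, adjusted p = 0.0355), the most negative of all members. Ercc4, which encodes XPF, the partner of ERCC1, had 30.6, 35.2 and 36.4 CPM in Tumor replicates, against 34.3, 31.8 and 36.2 CPM in Control replicates, with a log2 fold change of 0.00 ± 0.11 (SE, adjusted p = 0.997). It was named after its values were seen. Ercc1 overlaps Cd3eap, an RNA polymerase I subunit gene on the opposite strand, by 518 bases at its end, and Cd3eap had 24.4, 32.8 and 31.4 CPM in Tumor replicates, against 25.8, 26.5 and 25.6 CPM in Control replicates.

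The deposited transcript table splits Ercc1 into 3 transcripts, described here after the gene's values were seen and without a test. The main transcript, NM_007948.2, had 313, 384 and 351 estimated counts in Tumor replicates, against 944, 599 and 907 in Control replicates. XM_006539539.4, a predicted transcript, had 32.5, 17.0 and 16.6 counts in Tumor replicates, against 186, 101.3 and 197 in Control replicates. Both were lower in every Tumor library than in every Control library. NM_001127324.1 ran the other way, with 56.1, 50.3 and 42.0 counts in Tumor replicates, against 0, 3.20 and 0 in Control replicates. It made up 14.0%, 11.2% and 10.3% of the gene's counts in Tumor replicates, against 0%, 0.46% and 0% in Control replicates. Reads of 50 bases that fit several transcripts were divided among them by the authors' estimation, so these shares are estimates.

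**Figure D3:**
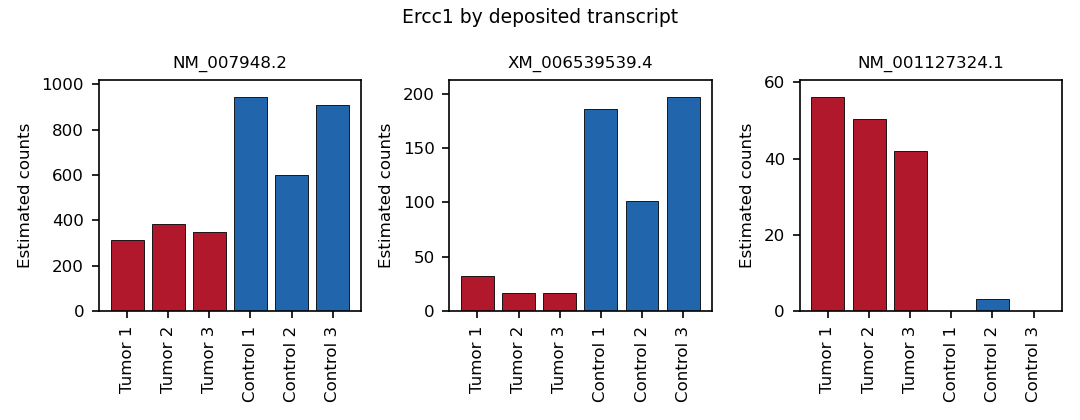
Estimated counts of the 3 deposited Ercc1 transcripts in each library, 1 panel per transcript and Tumor left of Control. Tumor bars are lower than Control bars for NM_007948.2 and XM_006539539.4, and for NM_001127324.1 they stand at 42.0 to 56.1 counts beside 0 to 3.20.

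Of the 10 tested end-joining genes none passed by edgeR, 1 had an unadjusted p under 0.05 and DESeq2 called 1, Polm, lower; the median log2 fold change was -0.09. Polm, a gap-filling polymerase, had the smallest p of them, with 21.3, 24.7 and 21.2 CPM in Tumor replicates, against 33.8, 31.0 and 26.6 CPM in Control replicates. Its groups did not overlap (log2 fold change -0.44 ± 0.13 SE, adjusted p = 0.082 by edgeR and 0.0487 by DESeq2). Prkdc, which encodes the DNA-PKcs kinase, had 26.8, 27.5 and 25.8 CPM in Tumor replicates, against 24.1, 25.0 and 23.0 CPM in Control replicates. The ranges were close but did not overlap, at a log2 fold change of 0.15 ± 0.09 (SE, adjusted p = 0.316). The Ku genes overlapped between the groups: Xrcc5, for Ku80, differed by 0.10 ± 0.09 (log2 fold change ± SE, adjusted p = 0.5) and Xrcc6, for Ku70, by -0.17 ± 0.12 (adjusted p = 0.384). Xrcc6 shares 23698 bases with Desi1 on the opposite strand. Lig4, the ligase of the pathway, had 10.4, 10.8 and 12.3 CPM in Tumor replicates, against 6.59, 9.63 and 8.94 CPM in Control replicates, without overlap (log2 fold change 0.41 ± 0.20 SE, adjusted p = 0.217).

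The Fanconi anemia core held 14 genes, of which 1 was lower by edgeR, beside 3.91% of all tested genes, none was higher and 13 did not pass. Their median log2 fold change was 0.05, 3 had an unadjusted p under 0.05, and DESeq2 called 1, Cenpx, lower. Cenpx, known as MHF2, is a small histone-fold protein that pairs with CENPS to hold FANCM on DNA and also sits at the kinetochore (chr11:120710941-120713895). It had 40.6, 40.0 and 43.8 CPM in Tumor replicates, against 74.8, 55.2 and 72.4 CPM in Control replicates. All Tumor libraries lay below all Control libraries, and the lowest Control library was again replicate 2. The log2 fold change was -0.70 ± 0.13 (SE, adjusted p = 0.0388), and -0.37 with an adjusted p of 0.0795 after the length correction. Faap24, which also binds FANCM, had 7.22, 9.11 and 10.1 CPM in Tumor replicates, against 14.4, 12 and 13.4 CPM in Control replicates. The groups did not overlap, but its log2 fold change of -0.59 ± 0.18 (SE) had an adjusted p of 0.0893. Fanca, a scaffold of the core ubiquitin ligase, overlapped between the groups with 13.6, 20.8 and 18.9 CPM in Tumor replicates, against 19.8, 13.9 and 20.6 CPM in Control replicates. Fancb, another core subunit, was among the lowest members per length at a mean of 1.56 FPKM and overlapped as well (log2 fold change 0.20 ± 0.28 SE, adjusted p = 0.685).

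The ID2 pair and its deubiquitinase gave 4 genes, none of which passed by edgeR, with a median log2 fold change of 0.29. One of them, Usp1, had an unadjusted p under 0.05 and was called higher by DESeq2 (adjusted p = 0.0182). Fancd2, the protein that the core complex marks with ubiquitin, had 7.85, 10.4 and 11.7 CPM in Tumor replicates, against 9.19, 3.80 and 9.47 CPM in Control replicates. Fanci, its clamp partner, had 8.94, 9.86 and 9.27 CPM in Tumor replicates, against 8.76, 5.03 and 9.96 CPM in Control replicates. In both genes the groups overlapped and Control replicate 2 lay far below the other 5 libraries. Usp1, which removes that ubiquitin, had 81.9, 83.9 and 88.3 CPM in Tumor replicates, against 65.0, 63.3 and 72.5 CPM in Control replicates. Its groups did not overlap, with a log2 fold change of 0.34 ± 0.09 (SE) and an adjusted p of 0.0611 by edgeR. It was 0.0496 without Tumor replicate 1 and 0.0635 to 0.174 in the other fits that lacked 1 library.

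Lesion bypass and mismatch repair held 8 genes, of which 1 was higher by edgeR, beside 3.8% of all tested genes, none was lower and 7 did not pass. Their median log2 fold change was 0.18, 1 had an unadjusted p under 0.05, and DESeq2 called 1, Rev1, higher. Rev1, the polymerase that docks the other bypass polymerases at a damaged base (chr1:38052786-38129921), had 37.1, 40.3 and 40.9 CPM in Tumor replicates, against 23.6, 28.1 and 24.8 CPM in Control replicates. Every Tumor library lay above every Control library, at a log2 fold change of 0.63 ± 0.11 (SE, adjusted p = 0.0366). Rev1 shares 2794 bases with Eif5b, a translation factor gene on the opposite strand, whose log2 fold change was 0.48 (adjusted p = 0.0631). Rev3l, the catalytic subunit of the polymerase that REV1 works with, was named after its values were seen and differed by 0.29 ± 0.15 (log2 fold change ± SE, adjusted p = 0.235). Poln was the lowest tested member per length at a mean of 0.372 FPKM, had the largest SE (0.59) beside a log2 fold change of 0.59, and shares 15529 bases with Haus3 on the same strand, so its value is uncertain.

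The 6 genes that passed kept their direction when any 1 library was left out, but whether they passed rested on single libraries. Log2 fold changes over the 6 fits that each lacked 1 library lay between 0.60 and 0.75 for Rev1, 0.53 and 0.62 for Atm, and 0.33 and 0.40 for Rad50. For the lower genes they lay between -1.38 and -1.09 for Ercc1, -0.78 and -0.60 for Cenpx, and -0.58 and -0.52 for Babam2. Without Control replicate 1, Control replicate 3, Tumor replicate 2 or Tumor replicate 3, no member passed by edgeR. In that order, 13, 17, 17 and 15 of the 88 tested members had an unadjusted p under 0.05. Over all tested genes the numbers were 3137 of 16013, 3464 of 16036, 3961 of 16050 and 3761 of 16041. In these 4 fits all genes together gave 0, 5, 3 and 0 calls. Without Tumor replicate 1, which had the highest adipocyte markers, 6 members were higher and 4 lower, and without Control replicate 2 there were 4 and 4. Those fits called 2605 and 2274 of all genes, beside 1217 with all 6 libraries. With all 6 libraries, DESeq2 called 8 of 90 members higher and 5 lower, beside 3029 of 19358 genes called.

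Transcript length moved with the fold changes. Relative length was taken for each gene as its count over its FPKM, and all tested genes were split into 3 classes of equal size. In the class of longest transcripts, 28 members had a median log2 fold change of 0.25, beside 0.19 for all tested genes of that class. The middle class, with 32 members, gave 0.07 beside -0.02, and the shortest, with 28 members, gave -0.08 beside -0.21. Rev1, Atm and Rad50 are all in the class of longest transcripts, while Ercc1, Cenpx and Babam2 are all in the shortest. After a correction of each library for length, the member medians were 0.09, 0.11 and 0.09 in the longest, middle and shortest class. Those of all tested genes were 0.009, -0.002 and -0.014. Rev1 (0.55, adjusted p = 0.0472) and Ercc1 (-0.97, adjusted p = 0.0461) still passed. Atm, Rad50, Cenpx and Babam2 did not, at the values given with each gene. Whether length sets the differences was not tested beyond this correction.

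**Figure D4:**
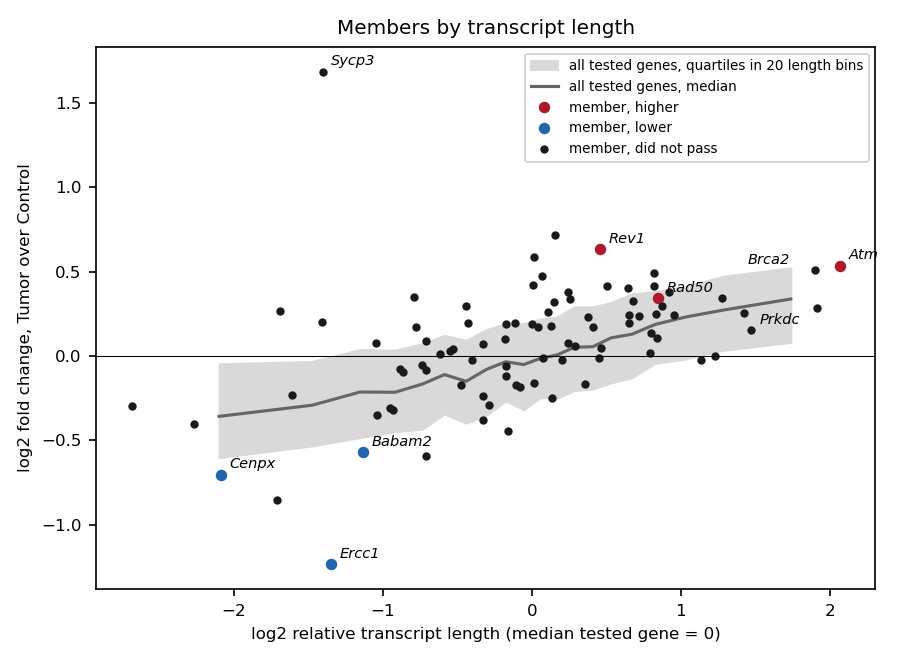
Log2 fold change of Tumor over Control against log2 relative transcript length, with the median tested gene at 0 on the length axis, for the 88 tested genes (points) over the median and quartiles of all tested genes in 20 length bins (line and band). The median of all genes climbs with length, the 3 higher members lie to the right and the 3 lower ones to the left.

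Control replicate 2 was the lowest library for many of the genes. It held the lowest level of 33 of the 88 genes (37.5%), beside 12.7% of all tested genes, whereas Tumor replicate 1 was the lowest in 19 (21.6%, beside 26.5%). Brca1, Bard1, Brca2, Palb2, Fancd2 and Fanci all had their lowest level there. The mean log2 CPM of 16 proliferation markers was 5.33, 5.72 and 5.78 in Tumor replicates and 5.71, 5.03 and 5.77 in Control replicates, also lowest in Control replicate 2, and none of the 16 passed between the groups by edgeR (1 at an unadjusted p under 0.05, 0 by DESeq2). The part of proliferating cells in the levels of these genes was not tested. Oocyte and luteal markers each separated the groups without overlap. With 3 libraries per group, oocyte or luteal content and the tumor status of a sample thus cannot be told apart for any member. No fit with luteal markers as a covariate was run.

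**Figure D5:**
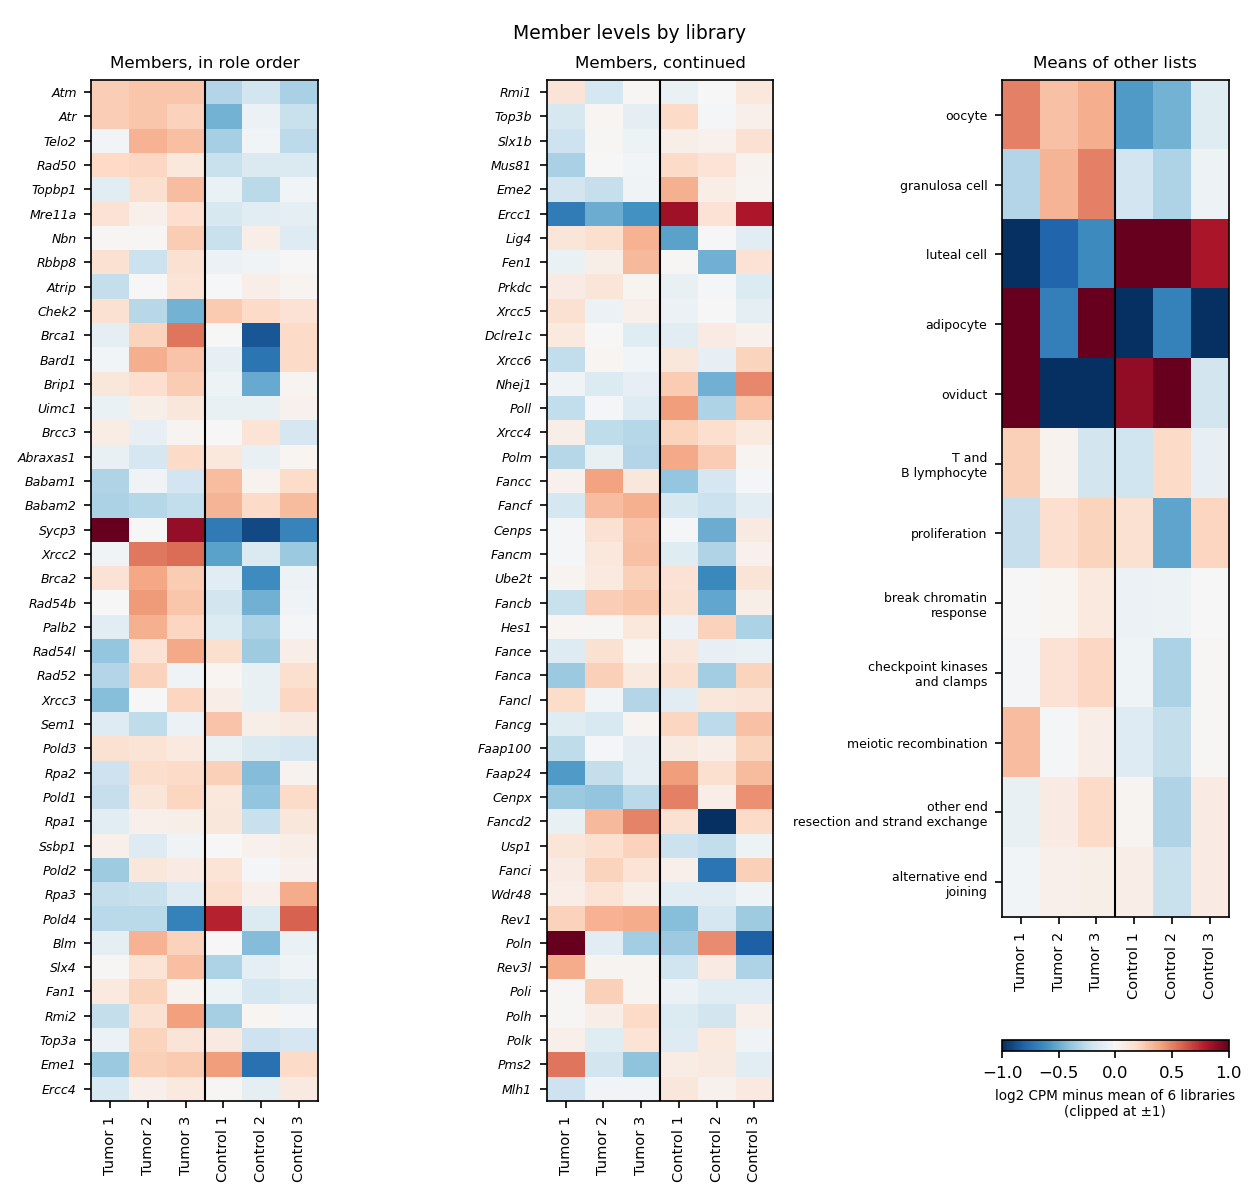
Log2 CPM of tested genes in each library, minus the gene's mean over the 6 libraries and clipped at 1 on either side, in role order in the left and middle panels, with the means of the marker and pathway lists on the right and Tumor left of Control. Control replicate 2 is pale to deep blue for Brca1, Bard1, Brca2, Fancd2 and Fanci and for the proliferation markers.

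Other genes of break repair, outside the 90, gave 3 calls by edgeR among 81 tested, all of them higher, where 3.8% of all tested genes were called higher. Their median log2 fold change was 0.22, and 0.16 after the length correction. An unadjusted p under 0.05 was reached by 23 of the 81, beside 31% of all tested genes. Rif1, which protects ends from trimming, was 1 of 16 tested genes of the chromatin response to breaks, and had 75, 66.6 and 76.5 CPM in Tumor replicates, against 30.0, 45.5 and 41.6 CPM in Control replicates. It was higher in every Tumor library (log2 fold change 0.90 ± 0.17 SE, adjusted p = 0.0385), but did not pass after the length correction (0.57, adjusted p = 0.0732), whereas Wee1 and Tex15 still passed. Wee1, a kinase that holds cells before mitosis, was the only 1 to pass by edgeR of 14 checkpoint genes (log2 fold change 0.63 ± 0.11 SE, adjusted p = 0.037). Tex15, needed for recombination in meiosis, was the only 1 to pass by edgeR of 22 tested meiotic recombination genes. It had 70.0, 74.3 and 83.1 CPM in Tumor replicates, against 31.5, 32.4 and 36.3 CPM in Control replicates. Its levels did not overlap between groups (log2 fold change 1.18 ± 0.10 SE, adjusted p = 0.019). A further 8 meiotic genes, Spo11 among them, were too low to test. In the chromatin, checkpoint and meiotic lists, 8, 5 and 6 genes had an unadjusted p under 0.05, and DESeq2 called 4, 3 and 3. None of 19 genes of end resection and strand exchange and none of 10 genes of alternative end joining passed by edgeR. Of these, 3 and 1 had an unadjusted p under 0.05, and DESeq2 called 1 and 0.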

How the data were processed

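RNA of 6 ovary samples was sequenced as single-end reads of 50 bases, per the labels' protocols. HISAT2 2.0.4, Bowtie2 2.2.5, RSEM 1.2.12 and GRCm38.p6 were used, per the submitters' processing notes, without saying what each did. Gene and transcript tables deposited by the authors hold estimated counts (39.2% of the gene values above 0 were not whole) and FPKM, per the file headers. In the authors' deposited comparison table the values are a log2 fold change, a p-value and a q-value, and positive values were higher in Tumor. A further 36 columns of values per sample were not used.

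Counts were rounded and filtered with filterByExpr, scaled by TMM (factors 0.962 to 1.054) and compared with edgeR 4.0.16 in R 4.3.3 (quasi-likelihood F test, robust, group only), with Benjamini-Hochberg adjustment over 15787 genes at 0.05. Levels are TMM-normalized CPM. The SE is the absolute log2 fold change divided by the square root of F. No libraries agreed within sampling noise (chi-square per degree of freedom at least 12.6). DESeq2 1.42.0, limma 3.58.1 on log2(FPKM + 1), RLE factors, no filter, a replicate block, length and GC corrections, 3 marker covariates and leaving out each library were alternatives. The test was tried on simulated data first.

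Positions are from the deposited annotation on GRCm38; strands are from GENCODE M21, because the deposited strand differed from it for 12 of the 90 genes. In both the deposited and the RefSeq positions 26 tested members overlap another gene, 22 of them on the opposite strand.

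Members and lists were chosen with earlier results of these data known. Named were members that passed, a panel of 14 well-known members, the 5 largest fold changes each way, the 3 highest and lowest FPKM and the smallest p per role. Values of some members are not reported here; counts and medians include all members.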

Additional observations from a re-analysis of the deposited data

How the results depend on the processing

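Over all genes, edgeR called 1217, and 6 members. GC correction gave 778 genes with 1 member higher and 3 lower, length correction 357 with 1 and 1, the oviduct covariate 2700 with 6 and 4, and DESeq2 3029 with 8 and 5. The adipocyte and oocyte covariates each gave 0 genes and 0 members (edgeR; 2369 and 252 genes and 13 and 0 members at an unadjusted p under 0.05). Leaving out 1 library at a time gave 0 to 2605 genes, 0 to 6 members higher and 0 to 4 lower. Beyond the fewer samples, the cause was not tested. Under RLE factors, no filter and limma on FPKM, counts stayed within 1.5 times, but Rad50 lost its call under RLE factors (adjusted p = 0.0503) and no filter (0.0627), and Atm under limma (0.0557).

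Same-numbered samples did not all deviate together (r = 0.237, -0.212 and 0.529 for numbers 1 to 3), and only Tumor replicate 3 correlated best with its own number. Whether the numbers pair the samples thus stays unclear. The replicate block gave 0 genes and 0 members called (4233 genes and 18 members at an unadjusted p under 0.05; edgeR).

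Of 29 named genes, 11 changed sign in at least 1 of 16 alternatives, none of them a gene that passed. With the oocyte covariate, log2 fold changes (± SE) were -0.076 ± 0.77 for Bard1, -0.012 ± 0.86 for Brca1 and -0.28 ± 0.77 for Fanci. They were 0.15 ± 0.31 for Polm and 0.008 ± 0.65 for Fanca, so each SE was larger than its value and these signs are uncertain. With the adipocyte covariate log2 fold changes were 0.38 ± 0.285 for Fanca, -0.40 ± 0.77 for Poln, -0.042 ± 0.13 for Xrcc5 and 0.004 ± 0.17 for Xrcc6. The oviduct covariate gave -0.016 ± 0.26 for Fancb. Length correction gave -0.13 for Prkdc and 0.08 for Sem1, GC correction 0.11 for Fanca, and limma 0.057 for Fanca. Leaving out a library gave -0.16 to 0.13 for Fanca and -0.11 to 1.14 for Poln.

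Depth limits low members such as Poln and Sycp3 most, and leaves Dntt and Gm5136 untested.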
